A study of Mus musculus with 31 samples.

Results

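The insulin-like growth factor (IGF) axis was followed here through 10 genes chosen by symbol: the ligands Igf1 and Igf2, the receptors Igf1r and Igf2r, and the binding proteins Igfbp2, Igfbp3, Igfbp4, Igfbp5, Igfbp6 and Igfbp7. They were 10 of the 24421 genes in the count table, each on 1 line, and all 10 were among the 14036 genes with enough reads to be tested. IGF1 and IGF2 are secreted peptides that bind the receptor tyrosine kinase IGF1R, which signals through insulin receptor substrates, PI3-kinase and AKT to growth, survival and protein synthesis. AKT holds FOXO transcription factors out of the nucleus, so genes driven by FOXO are a textbook readout of low signalling. IGF2R takes up and degrades IGF2 and carries no kinase, and the IGFBPs are secreted carriers that hold ligand in the matrix or the blood and release it when proteases cut them. In the heart, fibroblasts are a source of IGF1 and of several IGFBPs, and tissue macrophages make IGF1 as well.

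The RNA came from cultures of fibroblasts taken fresh from the hearts of C57Bl/6 mice aged 8-12 weeks. No genotype or drug was varied, and every group shared this strain, tissue and age. The 10 groups differed in the arrangement of the cells: a flat layer (2D), a three-dimensional arrangement (3D), 3D followed by 2D (3D-2D), that sequence followed by 3D again (3D-2D-3D) or by further 2D (3D-2D-2D), 2D and 3D at 5 days (2D-5days, 3D-5days), and 2D on substrates of 0.5, 8 and 64 kPa. There were 3 libraries per group and 2 for 3D-2D, 29 in all. The sources used here do not give what the substrates were made of, how many mice stood behind a library, or, outside the 5-day groups, how long the cells were kept in each arrangement.

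Totals of gene counts ran from 8509987 to 29909400 per library. Levels are given below as CPM, the usual count unit relative to the scaled library total, and changes as log2 fold changes ± standard error from 1 edgeR fit of all 29 libraries. A gene was called changed at a Benjamini-Hochberg adjusted p under 0.05 over all 14036 genes. The libraries of a group were not all alike. In both 3D-2D libraries and in libraries 1 and 2 of the 2D, the 3D and the 3D-2D-3D group, Xist was present and 4 Y-linked genes summed to 0 to 0.570 CPM of the unscaled library total. In library 3 of those 3 groups, in 3D-2D-2D and at 5 days, Xist was present and the Y-linked sum was 30.6 to 94.9 CPM. The substrate libraries had a Y-linked sum of 144 to 188 CPM and at most 0.711 CPM of Xist. Between 3D-2D-2D and 3D-2D all libraries differ in these reads, so that the arrangement and the origin of the cells cannot be told apart there. Libraries 1 and 2 of 3D-2D-3D differ in them from 3D-2D-2D as well, so that comparison mixes arrangement and origin in part. Whether the libraries of a group were separate cultures is not stated, and the p-values cover the spread among them alone. In 2D, 3D and 3D-2D-3D that spread includes the different origin of library 3. The rest of it there, and part or all of it in the other groups, may be technical. Fibroblast markers were high throughout: 10 of them, Col1a1, Pdgfra and Tcf21 included, summed to 19096 to 82287 CPM.

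Most of the 10 genes differed between flat and three-dimensional culture, in a comparison where much of the transcriptome did. In 3D against 2D, 8 of the 10 genes were called, where 54.0% of all genes (26.7% higher, 27.3% lower) were. That count alone does not set the 10 apart from the wider change, and it depended on the fit. Igf1, Igf2, Igf2r, Igfbp4, Igfbp5 and Igfbp7 were higher in 3D, Igf1r and Igfbp2 were lower, and Igfbp3 and Igfbp6 did not pass the test. The median log2 change of the 10 was 0.82, beside 0.03 over all tested genes. With the replicate number as a block, which the deviations of the libraries allowed as pairs here, 5 of the 10 were called, beside 5307 of all genes. These were Igf1r, Igfbp4, Igfbp5, Igfbp6 and Igfbp7. With only the 3D and 2D groups in the fit 4 of the 10 were called, beside 5652 of all genes. Summing the most alike libraries of a group, a choice made after seeing the data, also left 4 called, beside 5529 of all genes.

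When cells from 3D were put into 2D, 7 of the 10 genes changed against 3D, in a comparison where 56.5% of all genes (28.8% higher, 27.7% lower) did. Igf1, Igf2, Igf2r, Igfbp4 and Igfbp5 fell and Igf1r and Igfbp2 rose, with a median of -1.35 over the 10 and -0.02 over all genes. Both comparisons use the same 3D libraries. Against 2D itself, the 3D-2D cells differed in Igf2r alone, 1 of 10 genes, lower, with 14.4% of all genes (6.85% higher, 7.54% lower) called. Library 3 of 2D differs from both 3D-2D libraries in Y-linked reads. Without library 3 of 2D, 3D and 3D-2D-3D, 2 of the 10 were called, 1 higher and 1 lower, beside 3534 of all genes. The higher was Igfbp7, at 0.81 (adjusted p = 0.00511), beside 0.51 ± 0.25 with all libraries (adjusted p = 0.174). Back in 3D, 5 of the 10 differed from 3D-2D, beside 49.2% of all genes (24.2% higher, 25.0% lower): Igf2r, Igfbp5 and Igfbp7 were higher and Igf1r and Igfbp2 lower. Set against the cells kept in 2D for the further phase (3D-2D-2D), the cells returned to 3D differed in 6 of the 10, beside 40.4% of all genes (19.8% higher, 20.6% lower), with Igf2r higher and Igf1, Igf1r, Igfbp2, Igfbp3 and Igfbp4 lower. Libraries 1 and 2 of 3D-2D-3D differ from 3D-2D-2D in Y-linked reads too, so arrangement and origin are mixed there in part. At 5 days 6 of the 10 differed between 3D and 2D, beside 32.4% of all genes (14.9% higher, 17.5% lower), with Igf2r and Igfbp5 higher and Igf1r, Igfbp2, Igfbp3 and Igfbp7 lower.

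Several of these calls depended on how the libraries were fitted. With only the groups compared in the fit the calls ended for Igf2, Igfbp2, Igfbp4 and Igfbp7 in 3D against 2D, Igf2 in 3D-2D against 3D and Igf2r in 3D-2D against 2D. In such fits 7 of the 10 were called in 3D-2D-3D against 3D-2D and 9 in 3D-2D-3D against 3D-2D-2D, beside 8375 and 7400 of all genes. With the most alike libraries of a group summed, chosen after seeing the data, the calls ended for the same 4 genes in 3D against 2D, Igfbp4 in 3D-2D against 3D and in 3D-2D-3D against 3D-2D-2D, Igf2r in 3D-2D against 2D, Igfbp7 in 3D-2D-3D against 3D-2D and Igfbp3 at 5 days.

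**Figure D1:**
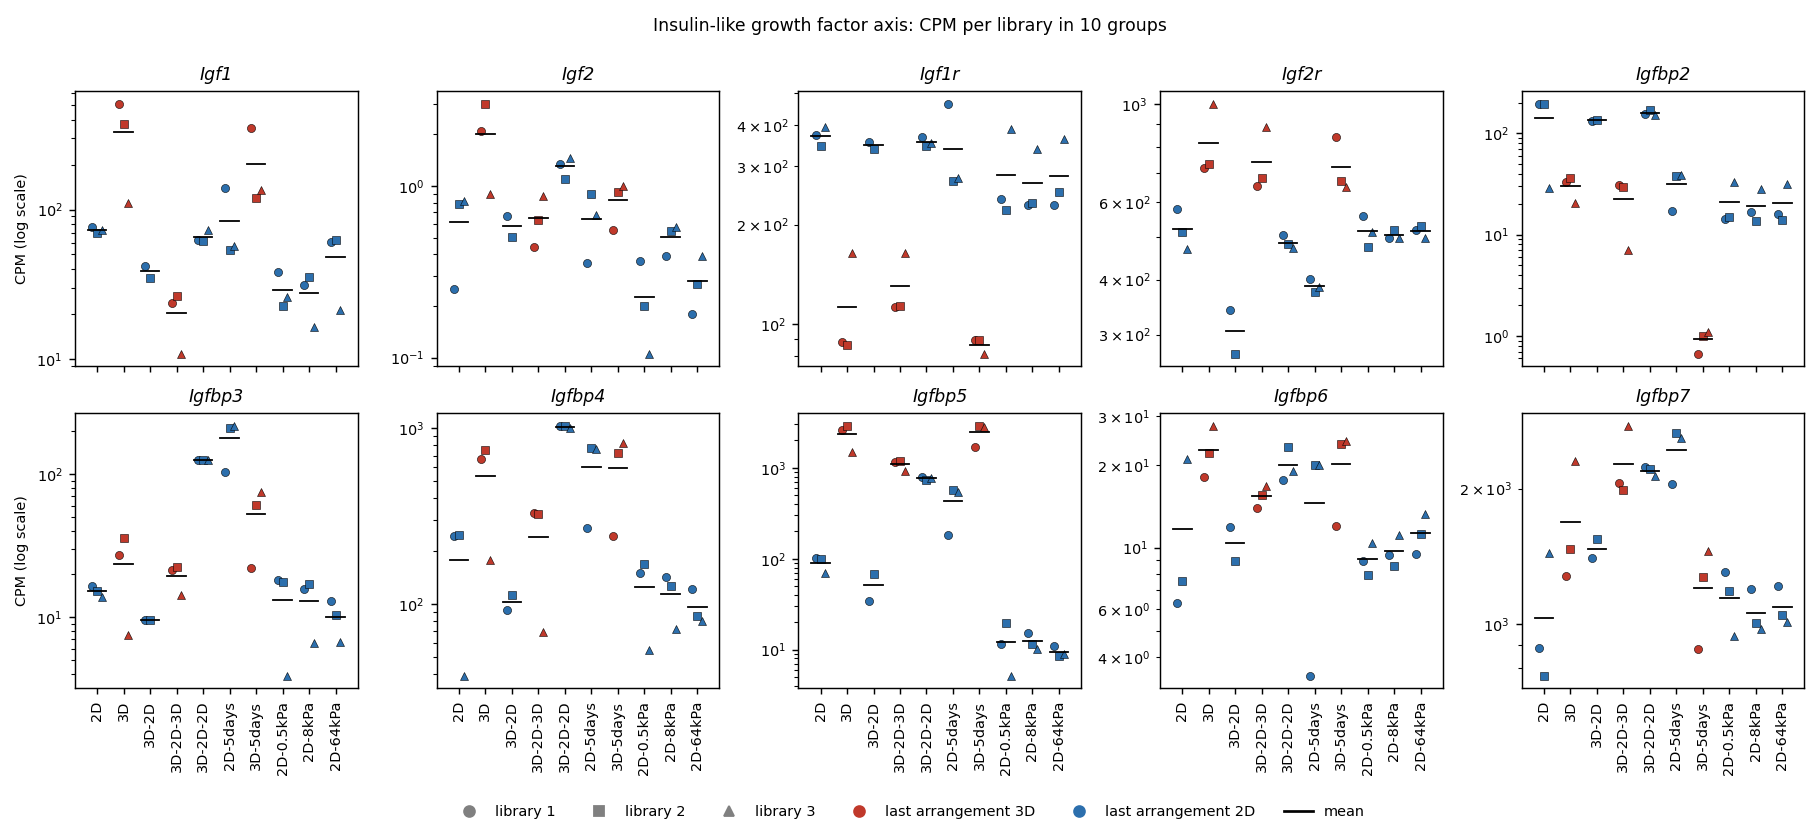
CPM (log axis, own range in each panel) of the 10 genes in the 29 libraries by group, with circles, squares and triangles for libraries 1, 2 and 3, red for groups that ended in 3D, blue for those that ended in 2D, and a bar at the group mean. Igfbp5 was highest and Igf1r lowest in the 3 groups that ended in 3D, and Igf1 was lowest of all groups in 3D-2D-3D.

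**Figure D2:**
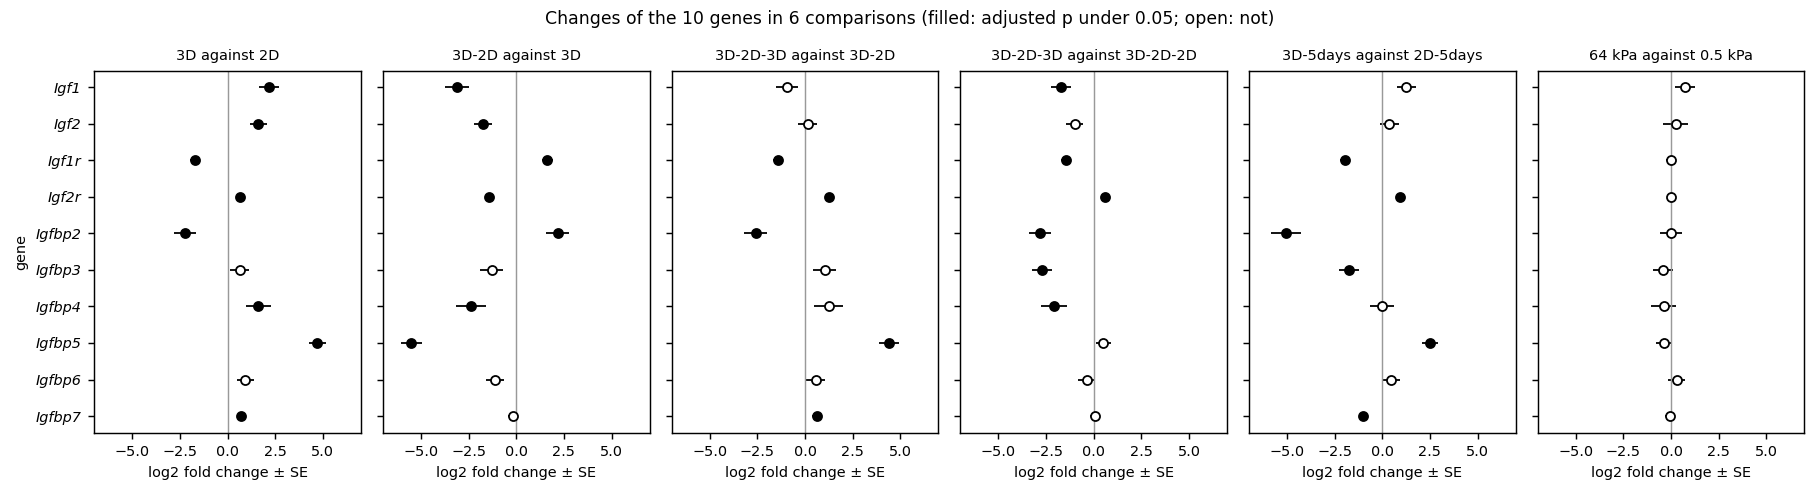
Log2 fold changes with standard errors of the 10 genes in 6 comparisons, with filled points where the adjusted p was under 0.05. Igf1r lies to the left in the 4 panels that set a group ending in 3D against one ending in 2D and to the right in 3D-2D against 3D, and no point is filled between 64 and 0.5 kPa.

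Igf1, on chromosome 10 from 87858265 to 87937047 of mm10 in the RefSeq annotation, encodes the main growth factor of the axis. Its CPM was 76.8, 69.3 and 72.6 in 2D libraries 1, 2 and 3 and 511, 376 and 111 in those of 3D. All 3D libraries were above all 2D libraries, but library 3 of 3D was far below the other two. The change was 2.19 ± 0.53 (4.56-fold, adjusted p = 0.00143). From library 3 of each group alone, a choice made after seeing the data that takes its spread from the other groups, it was 0.63 (adjusted p = 0.576). With the replicate block it was 1.96 and no longer called (adjusted p = 0.0559).

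In 3D-2D the 2 libraries had Igf1 at 42.1 and 35.0 CPM, a fall of 8.62-fold from 3D (-3.11 ± 0.64, adjusted p = 0.000355). On return to 3D Igf1 did not come back: it stood at 23.5, 26.2 and 10.8 CPM in 3D-2D-3D, every library below both of 3D-2D. That difference did not pass the test (-0.94 ± 0.57, adjusted p = 0.177). The 3D-2D-2D cells, of partly different origin, had 62.9, 61.4 and 73.0 CPM, so that 3D-2D-3D was 3.26-fold below them (-1.71 ± 0.53, adjusted p = 0.0127). Without library 3 of 3D-2D-3D the value was -1.40 and not called (adjusted p = 0.0656). Against first-time 3D, a comparison added after the values were seen, Igf1 in 3D-2D-3D was 16.5-fold lower (-4.05 ± 0.57, adjusted p = 5.43e-05). In that comparison 3 of the 10 genes were called, all lower, beside 23.0% of all genes (11.2% higher, 11.8% lower).

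At 5 days Igf1 was 140.2, 54.0 and 57.4 CPM in 2D and 349.7, 120.0 and 135 in 3D. The groups overlapped, because library 1 was the highest of both. The change of 1.26 ± 0.52 did not pass the test (adjusted p = 0.0661), and did with the replicate block (1.27, adjusted p = 6.75e-07) and in DESeq2 (adjusted p = 0.0301). It did not with libraries 2 and 3, which were the most alike, summed (1.28, adjusted p = 0.230) or used alone (1.19, adjusted p = 0.113). The block takes the numbers as pairs. Libraries 2 and 3 of 3D-5days correlated less with their own number in 2D-5days (r of 0.288 and 0.337) than with another (0.317 and 0.346). Over the 10 groups mean Igf1 went from 333 ± 204 CPM (SD, n = 3) in 3D and 201 ± 129 (SD, n = 3) in 3D-5days down to 20.2 ± 8.21 (SD, n = 3) in 3D-2D-3D, a 16.5-fold range, and every neighbouring pair in that order overlapped.

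Markers of macrophages were high in the libraries with most Igf1. The summed CPM of 21 of them, among them Csf1r, Adgre1, Cd68 and the C1q genes, was 1385, 1479 and 1749 in 2D and 10020.3, 7053 and 263 in 3D. It was 3277, 807 and 798 in 2D-5days and 13483, 3635 and 4338 in 3D-5days, so library 1, where Igf1 was highest, also led the markers at 5 days. In 3D-2D-3D, with the lowest Igf1, it was 281, 269 and 306. Between 3D and 2D 6 of the 21 were called higher and 1 lower (beside 26.7% and 27.3% of all genes), and between 3D-2D-3D and 3D 0 were called higher and 17 lower (beside 11.2% and 11.8% of all genes). None of the 21 was at 0 in all libraries of any group. In library 3 of 3D the markers stood at 263 CPM, below every 2D library, and Igf1 there was 111 CPM against 69.3 to 76.8 in 2D. In bulk RNA fewer cells of a type and less RNA per cell cannot be told apart, and the part of these cells in the change of Igf1 was not tested.

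**Figure D3:**
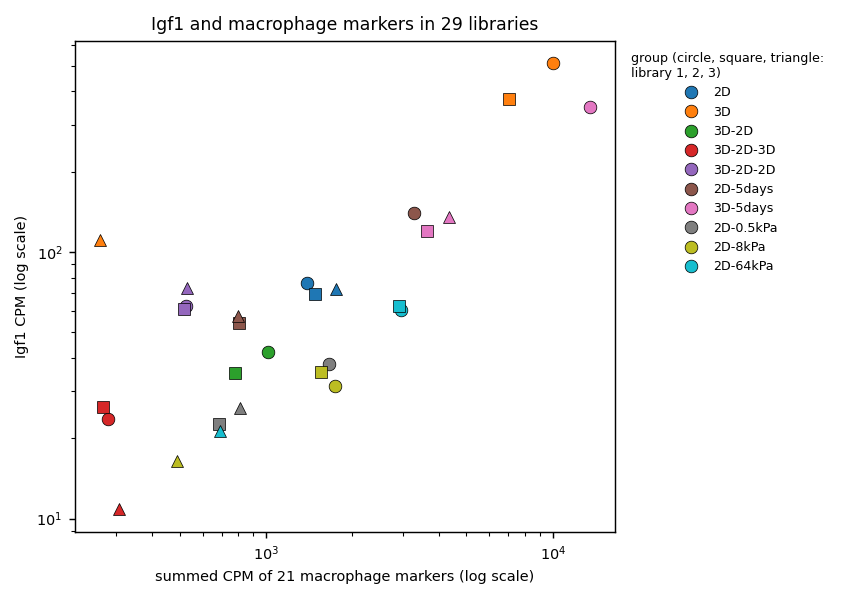
Igf1 CPM (log axis) against the summed CPM of 21 macrophage markers (log axis) in 29 libraries, coloured by group, with circles, squares and triangles for libraries 1, 2 and 3. The libraries with the highest markers, between 7053 and 13483 CPM, also had Igf1 between 350 and 511 CPM, while library 3 of 3D had the lowest, 263 CPM, and Igf1 at 111 CPM.

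The 250 bases before a RefSeq transcript start of Igf1 (chr10:87860861-87861110, plus strand, GRCm38.p6) are shown because Igf1 was the ligand with the larger counts. This start is not the first of the gene, and the window lies inside the annotated span given above. They hold 1 AP-1 motif, TGANTCA with N for any base, in capitals at 37 to 31 bases before that start, as 6.75% of the 32851 RefSeq windows of that length do on either strand.

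Igf1: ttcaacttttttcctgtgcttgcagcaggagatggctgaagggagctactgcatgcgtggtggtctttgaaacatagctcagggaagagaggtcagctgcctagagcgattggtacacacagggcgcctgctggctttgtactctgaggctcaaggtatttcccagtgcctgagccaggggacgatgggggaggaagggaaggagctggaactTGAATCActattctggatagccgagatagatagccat

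Igf2, the ligand of fetal growth, was close to silent. It is on chromosome 7 from 142650768 to 142666816, an imprinted gene read from the paternal copy. Its reads numbered 1 to 63 per library. CPM was 0.250, 0.789 and 0.820 in 2D and 2.08, 3.01 and 0.902 in 3D, with no overlap between the groups and libraries 1 and 2 of 3D above all other libraries of the study. The change was 1.61 ± 0.43 (adjusted p = 0.00315), 0.16 in library 3 alone (adjusted p = 0.856), and 1.53 with the replicate block, not called (adjusted p = 0.134). In 3D-2D Igf2 was lower than in 3D (-1.74 ± 0.49, adjusted p = 0.00450), a call lost without library 2 of 3D-2D (adjusted p = 0.0596), with only the 2 groups fitted (adjusted p = 0.0707) and with library 3 of 3D alone (-0.63, adjusted p = 0.318). On return to 3D its level of 0.443, 0.636 and 0.871 CPM overlapped that of 3D-2D (0.15 ± 0.49, adjusted p = 0.825). It lay below first-time 3D (-1.59 ± 0.41, adjusted p = 0.00741), a call that ended with the replicate block (-1.53, adjusted p = 0.150) and without library 2 of 3D (-1.17, adjusted p = 0.0748). The antisense gene Igf2os overlaps Igf2 and had 0 to 2 reads per library, and the strand setting of the counting is not known.

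Igf1r, the signalling receptor of both ligands, was lower wherever cells ended in 3D. It lies on chromosome 7 from 67952257 to 68233668. In 2D its CPM was 372, 345 and 395, and in 3D 88.2, 86.5 and 164. The groups did not overlap, and the fall was 3.28-fold (-1.72 ± 0.26, adjusted p = 1.24e-05). Library 3 of 3D, which differs from libraries 1 and 2 in origin and also had few macrophage markers, was nearest to 2D. In 3D-2D-3D the markers were 281, 269 and 306 CPM in libraries 1, 2 and 3, and Igf1r was 113, 113 and 164 CPM. The part of origin or of macrophages in the level of Igf1r was not tested.

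Moved from 3D to 2D, cells had Igf1r at 357 and 339 CPM, up 1.62 ± 0.28 from 3D (adjusted p = 5.31e-05) and -0.09 ± 0.29 from 2D (adjusted p = 0.863). Returned to 3D, they had 113, 113 and 164 CPM, down -1.42 ± 0.28 (adjusted p = 0.000255). Cells kept in 2D had 369, 346 and 353 CPM, and the returned cells were below these by -1.45 ± 0.26 (adjusted p = 0.000124). No library overlapped in the moves into 3D and out of it. At 5 days Igf1r was 465, 272 and 277 CPM in 2D and 89.2, 89.1 and 81.2 in 3D (-1.97 ± 0.27, adjusted p = 5.75e-06), again without overlap. The 7 groups that ended in 2D held 221 to 465 CPM and the 3 that ended in 3D 81.2 to 164 CPM. Within each of these sets neighbouring groups in the order of the means overlapped.

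Markers of the epicardial and mesothelial surface of the heart, 9 genes, summed to 27.5, 28.0 and 28.9 CPM in 2D and 4.32, 5.40 and 15.3 in 3D, and of 8 tested 1 was called higher in 3D and 4 lower (beside 26.7% and 27.3% of all genes). In the substrate libraries they summed to 3.66 to 11.5 CPM, and Igf1r there was 221 to 389 CPM. Their part in the change of Igf1r was not tested.

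The 3 genes whose group means followed Igf1r most closely over the 10 groups were Tead1 (Pearson r of mean log2 CPM 0.997), a transcription factor of the Hippo pathway, Lox (0.992), the enzyme that crosslinks collagen, and Lpcat4 (0.990). These coefficients describe 10 group means that share their libraries' depth and composition. Because Tead1 led that list, the window before Igf1r (chr7:67952007-67952256, plus strand) is shown. It has 42 CG pairs and 77.6% G and C. None of 5 motifs searched is in it on either strand: the TATA box TATAAA, the TEAD motif CATTCC, the AP-1 motif TGANTCA, the FOXO motif GTAAACA and the STAT motif TTCNNNGAA. These occur in 12.4%, 12.6%, 6.75%, 3.17% and 7.02% of the windows.

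Igf1r: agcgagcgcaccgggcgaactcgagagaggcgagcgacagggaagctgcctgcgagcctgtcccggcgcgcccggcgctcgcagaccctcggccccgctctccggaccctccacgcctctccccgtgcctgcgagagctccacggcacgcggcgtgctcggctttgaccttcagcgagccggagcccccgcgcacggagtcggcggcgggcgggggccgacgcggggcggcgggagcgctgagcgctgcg

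Igf2r, the clearing receptor, moved the other way. It lies on chromosome 17 from 12682406 to 12769706. In 2D it was 577, 513 and 469 CPM and in 3D 718, 733 and 1004, with no overlap (0.66 ± 0.13, adjusted p = 0.000298). With the replicate block the value was 0.65 and not called (adjusted p = 0.0623). It fell to 341 and 271 CPM in 3D-2D (-1.42 ± 0.16, adjusted p = 1.47e-07), the lowest group of all and below 2D by -0.76 ± 0.15 (adjusted p = 0.00267). Without library 2 of 3D-2D the difference from 2D was -0.61 (adjusted p = 0.112).

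On return to 3D Igf2r was 651, 681 and 890.2 CPM, a rise of 2.42-fold (1.28 ± 0.16, adjusted p = 7.58e-07), and it stood above the cells kept in 2D by 0.61 ± 0.13 (adjusted p = 0.000894). At 5 days it was 400.3, 374 and 385 CPM in 2D and 844, 670.2 and 649 in 3D (0.90 ± 0.13, adjusted p = 1.89e-05). The 3 groups that ended in 3D, with 649 to 1004 CPM, lay above the other 7, with 271 to 577 CPM. The antisense RNA Airn begins inside Igf2r and had 14 to 120 reads per library, beside 2908 to 28917 for Igf2r.

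Igfbp5, a binding protein that attaches to extracellular matrix, had the widest range of the 10 genes, 261-fold between the highest and lowest group mean. It lies on chromosome 1 from 72858065 to 72874865. Its CPM was 101, 98.5 and 69.2 in 2D and 2623, 2850.0 and 1503 in 3D, a rise of 26.0-fold (4.70 ± 0.45, adjusted p = 2.02e-08). The groups were far apart in all libraries, and library 3 alone gave 4.46 (adjusted p = 0.000811).

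In 3D-2D Igfbp5 was down to 34.4 and 67.2 CPM (-5.52 ± 0.56, adjusted p = 4.95e-08). Back in 3D it was 1154, 1184 and 930.2 CPM, up 21.5-fold (4.42 ± 0.52, adjusted p = 6.02e-07). It stood 2.13-fold below first-time 3D (-1.09 ± 0.38, adjusted p = 0.0442), and leaving out any 1 library but library 3 of 3D ended that call, with adjusted p up to 0.158 without library 2 of 3D. The 3D-2D-2D cells also had more Igfbp5 than 3D-2D cells: 783, 735 and 772 CPM, a difference of 3.91 ± 0.51 (adjusted p = 3.17e-06). That comparison was added after the values were seen, and origin and arrangement cannot be told apart in it. There 4 of the 10 genes were called, all higher, beside 46.5% of all genes (22.9% higher, 23.6% lower): Igf2r, Igfbp3, Igfbp4 and Igfbp5. The difference in 3D-2D-3D against 3D-2D-2D was small beside these (0.51 ± 0.38, adjusted p = 0.303), though no library overlapped.

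At 5 days Igfbp5 was 181, 576 and 546 CPM in 2D and 1691, 2903 and 2792 in 3D (2.50 ± 0.40, adjusted p = 4.98e-05), with no overlap and library 1 lowest in both. On the substrates it was near its floor in this study, at 5.17 to 19.5 CPM. 

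Endothelial markers, 10 genes, summed to 45.0, 38.3 and 50.0 CPM in 2D and 101, 105 and 38.5 in 3D, where 3 were called higher and 0 lower (beside 26.7% and 27.3% of all genes). They summed to 20.1 and 14.7 CPM in 3D-2D, 38.4, 37.8 and 27.1 in 3D-2D-3D and 78.9, 80.8 and 74.7 in 3D-2D-2D. Against 3D-2D, 1 was called higher and 1 lower in 3D-2D-3D (beside 24.2% and 25.0% of all genes), and 6 higher and 0 lower in 3D-2D-2D (beside 22.9% and 23.6% of all genes), the group where Igfbp5 was also above 3D-2D. At 5 days the sums were 35.8, 36.1 and 35.9 CPM in 2D and 106, 118 and 125 in 3D, with 8 called higher and 0 lower (beside 14.9% and 17.5% of all genes). Cardiomyocyte markers, 10 genes, summed to 10.2, 11.4 and 26.0 CPM in 2D and 66.8, 72.3 and 208 in 3D. Of 6 tested 1 was called higher and 0 lower (beside 26.7% and 27.3% of all genes). The part of either cell type in the change of Igfbp5 was not tested.

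Igfbp2 lies beside Igfbp5 on chromosome 1 from 72824480 to 72852474, with 5590 bases and no annotated gene between their ends, and it changed in the opposite direction in 3D. It binds both ligands and carries an integrin-binding motif. In 2D its CPM was 196, 196 and 29.1, and in 3D 33.0, 36.3 and 20.7. Libraries 1 and 2 of 2D stood far above 3D, but library 3 of 2D fell within the range of 3D. The change was -2.22 ± 0.57 (adjusted p = 0.00241), -0.47 from library 3 alone (adjusted p = 0.596), and -1.85 with the replicate block, not called (adjusted p = 0.0602).

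The moves gave the same pair of levels again. Igfbp2 was 133 and 136 CPM in 3D-2D (2.17 ± 0.61 against 3D, adjusted p = 0.00461), 30.6, 29.2 and 7.0 in 3D-2D-3D (-2.60 ± 0.61 against 3D-2D, adjusted p = 0.00132) and 155, 169 and 152 in 3D-2D-2D (-2.83 ± 0.58 for 3D-2D-3D against it, adjusted p = 0.000506). None of these pairs overlapped. At 5 days it was 16.9, 37.7 and 39.1 CPM in 2D and only 0.667, 1.0 and 1.09 in 3D, 6 to 12 reads a library. That was a fall of 33.2-fold, the largest of the 10 genes at 5 days (-5.05 ± 0.79, adjusted p = 3.90e-05). On the substrates it was 13.5 to 33.3 CPM, and libraries 1 and 2 of each substrate were below every 3D library.

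The epicardial and mesothelial markers followed a similar order in part. They summed to 45.4 and 51.6 CPM in 3D-2D, 23.3, 21.1 and 9.58 in 3D-2D-3D, 87.1, 82.4 and 85.2 in 3D-2D-2D, 35.8, 27.4 and 30.5 in 2D-5days and 1.89, 0.835 and 0.398 in 3D-5days. In the 3D-5days libraries, where Igfbp2 was lowest, they were lowest too, and of 8 tested 0 were called higher there and 3 lower (beside 14.9% and 17.5% of all genes). Their part in the change of Igfbp2 was not tested. In 2D library 3 the markers (28.9 CPM) were level with libraries 1 and 2, and Igfbp2 was 29.1 CPM against 196 in each of those. The markers in 2D-5days were also near those of 2D (27.5 to 28.9 CPM), while mean Igfbp2 was 31.2 CPM in 2D-5days and 140 in 2D.

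These neighbours lie tail to tail on opposite strands, and the windows before their starts are shown because they changed in opposite directions. That of Igfbp5 (chr1:72874866-72875115, minus strand) holds a TEAD motif 233 to 228 bases before the start, in capitals. Igfbp2 has 2 RefSeq starts, and the window of the first (chr1:72824230-72824479, plus strand) holds none of the 5 motifs while that of the second (chr1:72825137-72825386, plus strand) holds an AP-1 motif at 39 to 33 bases before the start.

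Igfbp5: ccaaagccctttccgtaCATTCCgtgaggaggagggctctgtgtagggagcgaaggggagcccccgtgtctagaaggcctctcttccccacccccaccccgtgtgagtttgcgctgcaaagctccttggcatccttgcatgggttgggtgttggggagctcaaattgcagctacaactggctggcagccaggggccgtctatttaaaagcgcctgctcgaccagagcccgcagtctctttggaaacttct
Igfbp2, first start: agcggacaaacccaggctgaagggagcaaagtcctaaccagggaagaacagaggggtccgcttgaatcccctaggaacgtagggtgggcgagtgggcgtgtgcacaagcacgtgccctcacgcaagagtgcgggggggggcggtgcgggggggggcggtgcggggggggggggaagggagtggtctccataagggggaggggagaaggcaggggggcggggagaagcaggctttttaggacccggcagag
Igfbp2, second start: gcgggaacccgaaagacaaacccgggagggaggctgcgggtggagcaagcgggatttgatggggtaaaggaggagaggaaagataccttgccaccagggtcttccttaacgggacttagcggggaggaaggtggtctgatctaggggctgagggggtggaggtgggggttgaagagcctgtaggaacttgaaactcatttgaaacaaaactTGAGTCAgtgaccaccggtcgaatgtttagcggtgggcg

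Igfbp3, the main carrier of IGFs in blood, on chromosome 11 from 7206086 to 7215498, was highest in 2 of the groups that ended in 2D. In 2D it was 16.5, 15.3 and 13.8 CPM and in 3D 27.1, 35.8 and 7.46, overlapping (0.62 ± 0.51, adjusted p = 0.316). From library 3 alone the sign was the reverse, -0.86 (adjusted p = 0.473). High levels were found in 3D-2D-2D, 127, 127 and 125 CPM, and in 2D-5days, 104, 212 and 219. The former was above 3D-2D, with 9.57 and 9.53 CPM, by 3.72 ± 0.66 (adjusted p = 0.000106), the largest of the 10 there after Igfbp5. Origin and arrangement cannot be told apart in that comparison. Igfbp3 was lower in cells that ended in 3D in both sets with high levels: -2.70 ± 0.53 in 3D-2D-3D against 3D-2D-2D (adjusted p = 0.000319) and -1.76 ± 0.51 at 5 days (adjusted p = 0.0112), where 3D-5days held 22.1, 60.7 and 74.7 CPM. Without library 1 of 3D-5days the latter was -1.40 (adjusted p = 0.0576).

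The groups with most Igfbp3 were also those with most of 9 markers of mural cells, the pericytes and smooth muscle of vessels. These summed to 1751 to 1836 CPM in 3D-2D-2D and 1444 to 1682 in 2D-5days, and to 349 to 917 in the other 8 groups. Of the 9, 4 were called higher and 3 lower in 3D-2D-2D against 3D-2D (beside 22.9% and 23.6% of all genes). In 3D-5days against 2D-5days 2 were higher and 3 lower (beside 14.9% and 17.5%). The fibroblast markers were also highest in 3D-2D-2D, at 75676 to 82287 CPM, and stood at 43380 to 69902 in 2D-5days. The mural markers include the contractile genes Myh11 and Cnn1, which activated fibroblasts also express. The part of mural cells was not tested.

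Igfbp4, which releases IGF1 when the protease PAPP-A cuts it, differed widely between libraries of a group. It lies on chromosome 11 from 99040005 to 99052655. In 2D it was 244, 249 and 39.1 CPM and in 3D 673, 757 and 179. Library 3 was the lowest in both groups, and library 3 of 3D fell below libraries 1 and 2 of 2D. The change of 1.60 ± 0.66 was just past the threshold (adjusted p = 0.0462), and leaving out 1 library ended the call for libraries 1 and 3 of 2D and 1 and 2 of 3D, with values from 1.12 to 1.90.

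Igfbp4 was lower in 3D-2D than in 3D (92.1 and 112 CPM, -2.39 ± 0.80, adjusted p = 0.0146), a call lost without either 3D-2D library. On return to 3D it was 331, 324 and 69.5 CPM (1.24 ± 0.75, adjusted p = 0.181). Library 3, the low one, differs from both 3D-2D libraries in Y-linked reads. Without library 3 of 2D, 3D and 3D-2D-3D the rise was 1.68 and called (adjusted p = 0.0157). With only the 2 groups fitted it was 1.24 and not called (adjusted p = 0.165). Its highest level was in 3D-2D-2D, 1036, 1033 and 1003 CPM, close together and above every other library. That was 3.32 ± 0.84 above 3D-2D (adjusted p = 0.00256), and 3D-2D-3D lay -2.09 ± 0.67 below it (adjusted p = 0.0164), not called without library 3 of 3D-2D-3D (adjusted p = 0.0754). At 5 days 2D (271, 774 and 759 CPM) and 3D (244, 723 and 821) differed by -0.01 ± 0.65 (adjusted p = 0.992), with library 1 the lowest of both. With a standard error of 0.65, a difference in either direction cannot be told from none.

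Igfbp6, a carrier that prefers IGF2, on chromosome 15 from 102144186 to 102149512, was low everywhere. In the main edgeR fit it was called in none of the 11 comparisons between groups, but other fits called it in some. Its CPM was 6.32, 7.57 and 21.0 in 2D and 18.0, 22.1 and 27.7 in 3D (0.93 ± 0.43, adjusted p = 0.0716). Library 3 of 2D reached into the range of 3D, and within pairs 3D was above 2D in all 3, which the replicate block called (1.15, adjusted p = 0.0493). DESeq2 also called it (adjusted p = 0.0432), and edgeR with only the 2 groups fitted did not (adjusted p = 0.165). In 3D-2D it was 11.9 and 8.98 CPM, below every 3D library (-1.12 ± 0.49, adjusted p = 0.0586). That fall was called in DESeq2 (adjusted p = 0.0298), and in edgeR with library totals alone (adjusted p = 0.0361) or only the 2 groups fitted (adjusted p = 0.0172). At 5 days it was 3.43, 20.1 and 20.0 CPM in 2D and 12.0, 23.7 and 24.5 in 3D, where library 1 was again the low one (0.47 ± 0.44, adjusted p = 0.446). In 3D-2D-3D against first-time 3D the block also called Igfbp6 (-0.58) and Igfbp4 (-1.24), adjusted p = 0.0414 and 0.0108.

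Igfbp7, a secreted relative with low affinity for IGFs, lies on chromosome 5 from 77349240 to 77408045. It had the smallest range of group means of the 10 genes, 2.36-fold, from 1033 CPM in 2D to 2434 in 2D-5days. In 2D it was 889, 769.5 and 1439.7 CPM and in 3D 1278, 1472 and 2307, overlapping because library 3 was high in both. The change was 0.71 ± 0.23 (adjusted p = 0.0117), and it lost its call without library 1 or 2 of 2D or library 3 of 3D, at 0.40 in the last case. In 3D-2D it was 1400.3 and 1546 CPM and in 3D-2D-3D 2054, 1982 and 2758, a difference just past the threshold (0.62 ± 0.26, adjusted p = 0.0494) that leaving out any 1 of the 5 libraries ended. The clearest difference was at 5 days, with 2053, 2658 and 2591 CPM in 2D and 882, 1274 and 1451 in 3D. There 3D was lower, with no overlap (-1.02 ± 0.23, adjusted p = 0.00141). Polr2b overlaps the end of Igfbp7 in the annotation and had 489 to 2198 reads per library, beside 7928 to 85501 for Igfbp7.

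The 3D-to-2D difference itself was then compared between the 5-day cultures and those with no stated time. It differed for 4 of the 10 genes, beside 25.5% of all genes (12.3% higher, 13.2% lower), and in each the value at 5 days was the lower. For Igfbp5 the difference of the differences was -2.20 ± 0.55 (adjusted p = 0.00531), a smaller rise at 5 days on a higher 2D level. That call ended with the most alike libraries summed (adjusted p = 0.109). For Igfbp7 it was -1.72 ± 0.32 (adjusted p = 0.000501), from called values of opposite sign. For Igfbp3 it was -2.38 ± 0.72 (adjusted p = 0.0189), with a 3D-to-2D value that was not called outside the 5-day groups. It lost its call without library 2 of 3D (-1.94, adjusted p = 0.0621), with only the 4 groups fitted (adjusted p = 0.0685) and with the most alike libraries summed (adjusted p = 0.191). Igfbp2, with -2.83 ± 0.99 (adjusted p = 0.0393), fell in both and fell further at 5 days, a call that ended when any 1 of 7 of the 12 libraries was left out and in both of those fits. Igf1r had -0.25 ± 0.36 (adjusted p = 0.672) and Igf2r 0.25 ± 0.19 (adjusted p = 0.375).

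Without the replicate block, substrate stiffness moved none of the 10 genes past the threshold. In these fits edgeR and DESeq2 each called 0 of all tested genes (0%) in the 3 pairs of substrates. At an unadjusted p under 0.05 there were 175 genes (1.25%) between 64 and 0.5 kPa, 82 (0.584%) between 8 and 0.5 and 241 (1.72%) between 64 and 8 kPa, and 0 of the 10. These shares are below the 0.05 that a calibrated test gives with no differences at all. The unpaired test was thus conservative here, and its 0 calls do not show that stiffness changed nothing. Igf1 had the largest value between 64 and 0.5 kPa, 0.74 ± 0.52 (adjusted p = 1). Its CPM was 38.0, 22.6 and 25.9 at 0.5 kPa, 31.5, 35.4 and 16.4 at 8 kPa and 60.7, 62.5 and 21.4 at 64 kPa, and libraries 1 and 2 of 64 kPa were above all others. The summed macrophage markers were 1653, 688 and 813, 1740.2, 1557 and 490.1 and 2950.1, 2918 and 688 CPM, and the same 2 libraries led these. With the replicate block, which the deviations of the libraries allowed as pairs here, 608 genes were called between 64 and 8 kPa. Igf1 was 1 of them (0.78, adjusted p = 0.000800). The block called 2 genes between 8 and 0.5 kPa and 0 between 64 and 0.5 kPa, with 0 of the 10 in either. For Igf1r the difference between 64 and 0.5 kPa was -0.01 ± 0.26 and for Igf2r -0.000181 ± 0.13, against the -1.72 and 0.66 between 3D and 2D.

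The rest of the pathway was described from 5 lists. The IGF availability list holds proteases that cut IGFBPs, their inhibitors and further carriers, and 10 of its 14 genes were tested. In 3D against 2D, 2 were higher and 2 lower, beside 26.7% and 27.3% of all genes (median -0.29, all genes 0.03). Htra3, a secreted serine protease, rose from 13.3 to 255 CPM (4.28 ± 0.62, adjusted p = 6.47e-06). Plau, the urokinase protease, rose by 1.85 ± 0.73, and Adam9, a membrane metalloprotease, changed by -1.74 ± 0.16. Pappa, which encodes the protease of IGFBP4, changed by -1.16 ± 0.37 (adjusted p = 0.0104).

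In 3D-2D-3D against 3D-2D the list had 3 higher and 2 lower, beside 24.2% and 25.0% of all genes (median 0.04, all genes 0.01). Stc1, an inhibitor of pappalysins, rose by 3.06 ± 0.88 and Htra3 by 3.05 ± 0.72, while Adam12 changed by -1.78 ± 0.36 and Adam9 by -1.48 ± 0.17. Against 3D-2D-2D, the 3D-2D-3D cells had 0 higher and 5 lower, beside 19.8% and 20.6% of all genes (median -0.77, all genes -0.01), with Pappa at -2.96 ± 0.39 and Adam12 at -2.83 ± 0.35. At 5 days 1 was higher and 3 lower, beside 14.9% and 17.5% of all genes: Plau at 2.78 ± 0.77, Stc2 at -1.89 ± 0.33, Pappa at -1.19 ± 0.37 and Adam9 at -1.07 ± 0.15. Igfals, Igfbp1, Igfbpl1 and Plg had too few reads to be tested.

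Of 36 genes of receptor signalling, 34 were tested, and in 3D against 2D 11 were higher and 11 lower, beside 26.7% and 27.3% of all genes (median 0.10, all genes 0.03). Irs1, the docking protein next to the receptor, went from 89.3 to 25.1 CPM (-1.83 ± 0.26, adjusted p = 4.27e-06). Grb14, an adaptor that inhibits insulin receptor signalling, changed by -1.33 ± 0.50, and Phlpp1, a phosphatase of AKT, by -1.25 ± 0.23. Foxo3 rose by 1.33 ± 0.19 (adjusted p = 3.59e-06). In 3D-2D against 3D 8 were higher and 15 lower, beside 28.8% and 27.7% of all genes (median -0.36, all genes -0.02), and Irs1 rose by 1.63 ± 0.28 and Foxo3 changed by -2.02 ± 0.22. Back in 3D, 16 were higher and 11 lower than in 3D-2D, beside 24.2% and 25.0% of all genes (median 0.33), with Irs1 at -1.79 ± 0.28, Grb10, a relative of Grb14, at -1.50 ± 0.18, Grb14 at -1.41 ± 0.58 and Foxo3 at 1.30 ± 0.22. At 5 days 2 were higher and 6 lower, beside 14.9% and 17.5% of all genes (median -0.04, all genes 0.00331), among them Grb14 at -2.14 ± 0.51 and Irs1 at -0.80 ± 0.26. With the replicate block 13 of the 34 were called at 5 days, as were 7 of the availability list and 4 of the growth hormone arm, beside 5265 of all genes.

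FOXO target genes were called in 1 direction for the most part between first-time 3D and 2D. Of 16 genes, all tested and 1 of them (Irs2) also in the signalling list, 12 were higher in 3D and 1 lower, beside 26.7% and 27.3% of all genes (median 1.62, all genes 0.03). Trim63 and Fbxo32, ubiquitin ligases of muscle wasting, rose by 5.22 ± 0.64 and 2.94 ± 0.38, the former from 0.106 to 3.90 CPM and the latter from 6.60 to 50.2. Pik3ip1, an inhibitor of PI3-kinase, rose by 3.37 ± 0.27 (adjusted p = 2.02e-09) and Bcl2l11, the death protein BIM, by 2.67 ± 0.26. In 3D-2D against 3D 1 was higher and 13 lower, beside 28.8% and 27.7% of all genes (median -2.14). In 3D-2D-3D against 3D-2D 10 were higher and 1 lower, beside 24.2% and 25.0% of all genes (median 1.42), led by Trim63 at 3.79 ± 0.71, Gadd45a, a growth arrest protein, at 3.60 ± 0.22, Pik3ip1 at 3.45 ± 0.33 and the transcription factor Klf15 at 3.38 ± 0.63.

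In 3D-2D-2D against 3D-2D, where origin and arrangement cannot be told apart, 10 of the 16 were higher and 2 lower, beside 22.9% and 23.6% of all genes (median 0.85, all genes -0.02). In 3D-2D-3D against 3D-2D-2D 5 were higher and 2 lower, beside 19.8% and 20.6% of all genes (median 0.55). At 5 days 5 were higher in 3D and 2 lower, beside 14.9% and 17.5% of all genes (median 0.29, all genes 0.00331). Gadd45a rose there by 2.91 ± 0.18 and Fbxo32 by 1.25 ± 0.36, while Pdk4, a kinase of glucose oxidation, was at -2.34 ± 0.42 and Cited2 at -1.68 ± 0.28. In the difference between the sets of cultures 0 of the 16 were higher at 5 days and 8 lower, beside 12.3% and 13.2% of all genes. Many of these genes also respond to other signals, and FOXO activity was not measured.

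**Figure D4:**
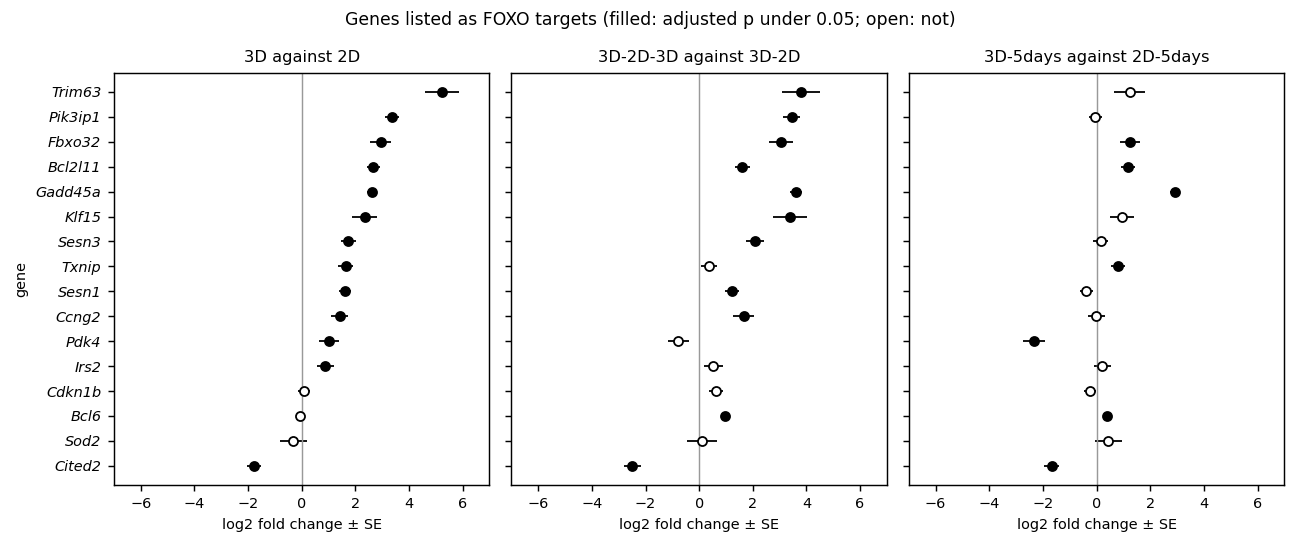
Log2 fold changes with standard errors of 16 genes listed as FOXO targets in 3D against 2D, 3D-2D-3D against 3D-2D and 3D-5days against 2D-5days, with filled points where the adjusted p was under 0.05. Of the 16, 12 are filled to the right in the first panel, 10 in the second and 5 in the third, and Cited2 is filled to the left in all 3.

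Of the growth hormone arm, 6 genes, 1 was higher and 2 lower in 3D against 2D, beside 26.7% and 27.3% of all genes. Ghr, the growth hormone receptor, went from 286 to 103 CPM (-1.47 ± 0.27, adjusted p = 9.73e-05). It was at -1.77 ± 0.29 in 3D-2D-3D against 3D-2D, where 3 of the 6 were higher and 3 lower, beside 24.2% and 25.0% of all genes. At 5 days Ghr was at -1.91 ± 0.27 and was the 1 gene of the 6 called, beside 14.9% of all genes higher and 17.5% lower. The 3 IGF mRNA binding proteins had Igf2bp1 lower in 3D (-2.10 ± 0.54, 1.63 CPM in 3D and 7.19 in 2D) and the other 2 not called. Under the replicate block 2 of the 3 were called, beside 5307 of all genes.

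Other members were also matched to the genes of most similar pattern over the 10 group means. For Igf1 these were Ltc4s (r = 0.969), the leukotriene C4 synthase, Zeb2os (0.964) and the semaphorin receptor Plxnc1 (0.957). For Igfbp5 they were Lonrf1 (0.986), the polyamine enzyme Sat1 (0.982) and the peptidase Enpep (0.982). For Igfbp2 they were Rrm2b (0.951), a ribonucleotide reductase subunit, Csrnp1 (0.938) and Dnah10 (0.930), and for Igf2r Ankhd1 (0.970), Prr36 (0.962) and Vps13c (0.962).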

How the data were processed

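RNA sequencing of 29 libraries in 10 groups was used, and 2 ATAC-seq libraries were not analysed here. The authors deposited raw read counts per gene symbol in 1 table of 24421 genes and 5 summary lines, which were left out. Per the submitters' processing notes TopHat, HTSeq, Bowtie and MACS2 were used, with no role or version named, on mm10; the sources used here give neither the annotation nor the strand setting. Reads that aligned to more than 1 place came to 14.0% to 28.4% of all counted, reads outside genes to 4.84% to 10.0% and reads in more than 1 gene to 0.881% to 1.06%. All libraries were fitted in edgeR 4.0.16 (R 4.3.3, limma 3.58.1) with 1 mean per group, filterByExpr, TMM factors of 0.868 to 1.10 and the robust quasi-likelihood F test, which was tested on simulated data. P-values were adjusted by Benjamini-Hochberg over 14036 genes. Group totals spanned 8509987 to 9588559 (2D-5days) and 21390619 to 29909400 (3D-2D-3D) at the extremes. The counts carry no molecular identifiers, so reads are not independent molecules. The 10 genes, the lists and the rule for named genes (all 10, up to 4 called genes per list and comparison by size of change, and the 3 genes of most similar group means) were chosen with earlier results of these data known. Replicate numbers were taken as pairs where same-numbered libraries deviated together (r of at least 0.1 for each pair): 3D with 2D (0.141 to 0.232), the 5-day groups (0.288 to 0.572), the substrates (0.191 to 0.753) and 3D-2D-3D with 3D (0.196 to 0.300). Libraries that correlated best with their own number were 2 of 3 in 3D against 2D and in 3D-2D-3D against 3D, and 1 of 3 at 5 days. No 2 libraries agreed within sampling noise (lowest mean squared z 1.49). Positions and sequences are RefSeq's on GRCm38.p6, in which all 10 symbols matched. Alternatives were other size factors, filters, separate fits, the block, DESeq2 1.42.0, single libraries left out and subsets of libraries.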

Additional observations from a re-analysis of the deposited data

Results flagged for a closer look

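For 4 of the 10 genes the change from 2D to 3D differed between the 5-day cultures and those with no stated time, by the interaction contrast in edgeR's quasi-likelihood test. Igfbp2 had a difference of -2.83 ± 0.99 (adjusted p = 0.0393): it fell by 5.05 on the log2 scale at 5 days and by 2.22 in the other cultures, and 3 of 3 libraries of 3D-5days were below every 2D-5days library. That call ended without any 1 library of 3D-5days. It also ended with only the groups compared in the fit (adjusted p = 0.0778) and with the most alike libraries summed (adjusted p = 0.178). Igfbp3 had -2.38 ± 0.72 (adjusted p = 0.0189), from -1.76 at 5 days and 0.62, not called, in the other cultures, and it lost its call without library 2 of 3D (-1.94, adjusted p = 0.0621). Igfbp5 had -2.20 ± 0.55 (adjusted p = 0.00531), from rises of 2.50 and 4.70, and its call ended with the most alike libraries summed (adjusted p = 0.109). Igfbp7 had -1.72 ± 0.32 (adjusted p = 0.000501), from -1.02 and 0.71. The 5-day libraries also differ from libraries 1 and 2 of the other cultures in the Y-linked reads they hold, and time and origin cannot be told apart there.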

How the results depend on the processing

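Of 1423 values of the 10 genes under alternatives, 1241 kept their sign and their side of the threshold, 83 lost a call, 57 gained one and 42 changed sign, and the cause was not tested in any. Of 690 counts for the pathway lists 571 stayed within 1.5 times. The fits of subsets and of summed libraries, and the comparisons of 3D-2D-3D with 3D and 3D-2D-2D with 3D-2D, were chosen after seeing the data. With library totals alone the median of all genes moved to 0.16 in 3D against 2D, -0.16 in 3D-2D against 3D, 0.22 in 3D-2D-3D against 3D-2D-2D, 0.13 in 3D-5days against 2D-5days and -0.16 in 3D-2D-2D against 3D-2D, and the higher and lower calls were 4747 and 1893 in 3D-2D-3D against 3D-2D-2D (2782 and 2895 as reported), 2912 and 1877 in 3D-5days against 2D-5days (2098 and 2450), 2518 and 4223 in 3D-2D-2D against 3D-2D (3209 and 3317) and 1179 and 1890 in 3D-2D-3D against 3D (1566 and 1661). With only the groups compared in the fit the genes called numbered 523 in 3D-2D against 2D, 2991 in 3D-5days against 2D-5days, 1485 in 3D-2D-3D against 3D and 2156 in the difference between 5 days and no stated time, and those of the 10 called were 4 in 3D against 2D, 1 in 3D-2D-3D against 3D, 9 in 3D-2D-2D against 3D-2D and 2 in the difference between 5 days and no stated time. All genes called with that setting numbered 5652 in 3D against 2D and 9074 in 3D-2D-2D against 3D-2D. Signs reversed there for Igfbp4 0.028 (3D-5days against 2D-5days). With the replicate block in that fit the genes called numbered 6264 in 3D-2D against 2D, 2 in 8 kPa against 0.5 kPa, 608 in 64 kPa against 8 kPa and 1587 in 3D-2D-3D against 3D, and those of the 10 called were 5 in 3D against 2D, 7 in 3D-2D against 2D, 9 in 3D-2D-3D against 3D-2D, 1 in 64 kPa against 8 kPa and 7 in 3D-2D-2D against 3D-2D. All genes called with the block numbered 5307 in 3D against 2D, 9429 in 3D-2D-3D against 3D-2D and 8478 in 3D-2D-2D against 3D-2D. Signs reversed there for Igfbp7 0.087 (3D-2D against 3D), Igf2 0.17 (3D-2D against 2D), Igfbp6 0.55 (3D-2D against 2D) and Igf2 -0.16 (3D-2D-3D against 3D-2D). With replicates 1 and 2 alone the genes called numbered 3534 in 3D-2D against 2D, and those of the 10 called were 2 in 3D-2D against 2D. Signs reversed there for Igfbp7 0.075 (3D-2D against 3D), Igf2 0.14 (3D-2D against 2D), Igfbp6 0.56 (3D-2D against 2D), Igf2 -0.14 (3D-2D-3D against 3D-2D) and Igfbp7 -0.13 (3D-2D-3D against 3D-2D-2D). With replicate 3 alone the genes called numbered 4687 in 3D against 2D and 299 in 3D-2D-3D against 3D, and those of the 10 called were 3 in 3D against 2D and 0 in 3D-2D-3D against 3D. Signs reversed there for Igfbp3 -0.86 (3D against 2D), Igfbp3 0.33 (3D-2D against 3D), Igf1r -0.012 (3D-2D-3D against 3D) and Igfbp3 0.93 (3D-2D-3D against 3D). With libraries 1 and 2 of the substrates alone the genes called numbered 1 in 64 kPa against 8 kPa. With the most alike libraries of a group summed the genes called numbered 201 in 3D-2D against 2D, 2502 in 3D-5days against 2D-5days, 445 in 3D-2D-3D against 3D and 1365 in the difference between 5 days and no stated time, and those of the 10 called were 4 in 3D against 2D, 0 in 3D-2D against 2D, 1 in 3D-2D-3D against 3D and 1 in the difference between 5 days and no stated time, and the FOXO targets called were 4 in 3D-5days against 2D-5days. All genes called with these sums numbered 5529 in 3D against 2D. Signs reversed there for Igfbp2 0.24 (3D-2D against 2D). With RLE size factors the sign reversed for Igfbp4 0.0073 (3D-5days against 2D-5days). With library totals alone the sign reversed for Igfbp4 0.14 (3D-5days against 2D-5days) and Igf1r -0.11 (3D-2D-2D against 3D-2D). Without the filter the sign reversed for Igfbp4 0.0029 (3D-5days against 2D-5days). With the filter at 1 CPM in 3 libraries the sign reversed for Igfbp4 0.019 (3D-5days against 2D-5days). With DESeq2 the sign reversed for Igfbp4 0.0070 (3D-5days against 2D-5days). With 5-day libraries 2 and 3 alone the sign reversed for Igfbp4 0.010 (3D-5days against 2D-5days) and Igf1r 0.026 (the difference between 5 days and no stated time). Leaving out 1 library reversed a sign for Igfbp2 from -0.54 to 0.26 (3D-2D against 2D), Igf2 from -0.45 to 0.17 (3D-2D against 2D), Igfbp6 from -0.47 to 0.59 (3D-2D against 2D), Igfbp3 from -0.71 to 0.18 (3D-2D-3D against 3D), Igfbp7 from -0.37 to 0.10 (3D-2D against 3D), Igf2r from -0.32 to 0.016 (3D-2D-3D against 3D), Igf1r from -0.42 to 0.15 (the difference between 5 days and no stated time), Igf2 from -0.16 to 0.36 (3D-2D-3D against 3D-2D), Igf1r from -0.0078 to 0.082 (3D-2D-2D against 3D-2D), Igfbp7 from -0.11 to 0.15 (3D-2D-3D against 3D-2D-2D), Igf1r from -0.022 to 0.56 (3D-2D-3D against 3D) and Igfbp4 from -0.36 to 0.36 (3D-5days against 2D-5days). Leaving out each library in turn, the genes called ran from 171 to 2947 in 3D-2D against 2D and 1991 to 4100 in 3D-2D-3D against 3D, and those of the 10 from 0 to 2 in 3D-2D against 2D, 1 to 4 in 3D-2D-3D against 3D and 2 to 4 in the difference between 5 days and no stated time. By their deviations the numbers did not pair the libraries in comparisons that involve 3D-2D, nor in 3D-2D-3D against 3D-2D-2D (lowest same-number r -0.127), and the block there is a number only. In the latter 1 of 3 libraries correlated best with its own number, as was so at 5 days, where the same-number r was 0.288 to 0.572. In the comparisons taken as pairs the calls that the block changed among the 10 genes are given with those genes, and it changed no other. Igf2, at 1 to 63 reads a library, and Igfbp2 in 3D-5days, at 6 to 12, are limited by depth. Where leaving out a library leaves 1 in a group, that library is assumed to vary like the other groups.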

Other observations

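The genes of most similar pattern over the 10 group means (Pearson r of mean log2 CPM, a description with no test) were Tlcd1 (0.990), Rab4b (0.982) and Rcn3 (0.976) for Igfbp3, Htatip2 (0.984), Tmem178 (0.979) and Mtch1 (0.979) for Igfbp4, Sprn (0.926), Crmp1 (0.911) and Col9a2 (0.909) for Igf2, and Fbxo41 (0.952), Tctn3 (0.948) and Sprn (0.947) for Igfbp6.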
